A study of Mus musculus with 16 samples.

Results

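The methionine cycle and the transsulfuration route are described here in mouse liver by the messenger RNA of 10 enzyme genes, chosen by name: Mat1a, Ahcy, Gnmt, Bhmt, Mtr, Cbs, Cth, Cdo1, Csad and Inmt. Each name matched 1 of the 57010 genes in the deposited table, and each of the 10 genes had a mean of at least 1 TPM (a transcript level scaled by transcript length and to the same total in each library), the filter for testing that 11766 genes passed. The study asked what cadmium (Cd) does to the liver and whether selenium (Se) counters it. Liver RNA of male C57BL/6J mice was sequenced in 4 groups of 4 mice. Control mice received neither agent. Cd mice received CdCl2 at 1.25 mg/kg by intraperitoneal injection, daily over the last 7 days. Se mice ate a diet with selenomethionine (SeMet, methionine with Se in place of sulfur) at 2 ppm for 3 months, and Cd+Se mice received both agents. All mice carried the wild-type genome of that strain, and no group was a genetic model. Mice are called by the numbers in the labels, which are 27 to 30 for control, 1, 2, 5 and 6 for Cd, 39, 40, 41 and 44 for Se and 13 to 16 for Cd+Se.

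The liver is the main organ of methionine breakdown. Mat1a encodes the catalytic subunit of the liver-type enzyme that joins methionine to ATP to form S-adenosylmethionine (SAM), the methyl donor of most methyltransferases. Those methyltransferases leave S-adenosylhomocysteine, which the enzyme encoded by Ahcy splits into adenosine and homocysteine. Homocysteine is either methylated back to methionine, by the products of Bhmt with betaine and of Mtr with a folate, or passed by those of Cbs and Cth to cysteine. Cysteine then feeds glutathione, or is oxidised through the product of Cdo1, with Csad leading on to taurine. SeMet enters the same enzymes in place of methionine, and its Se can be freed by that route.

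All libraries carried the transcripts that define liver. The summed level of 6 hepatocyte markers (Alb, Apoa1, Cps1, Fabp1, Serpina1c and Ttr) lay between 49276 and 122560 TPM in the 16 libraries. Its median was 84187 TPM in control mice, 66150 in Cd mice, 81819 in Se mice and 75047 in Cd+Se mice. Mt1, a metallothionein gene that Cd induces, lay between 3178 and 6070 TPM in the 8 mice given Cd and between 50.9 and 431 TPM in the 8 others, so the libraries went with their labels for Cd. Mt1 does not tell SeMet-fed mice from the others, and the Se part of the labels was not checked. The library of Cd mouse 5 stood apart in scale. The median gene tested was at 2.68 on the log2(TPM + 1) scale there against 2.90 to 3.12 in the other Cd mice, and mitochondrially encoded genes held 22.2% of its TPM against 12.8% to 18.0%. The results in which Cd changed a member are therefore given with and without that mouse. TPM keep no sequencing depth, which is unknown here, and the 4 mice per group limit the precision.

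In the liver of Cd-treated mice, the gene that makes SAM, Mat1a, fell by 47.7% in mean TPM. Ahcy, which clears what SAM leaves behind, fell by 34.2%, and Gnmt, which uses SAM up, by 31.4%. Mat1a averaged 1018 ± 112 TPM in control mice (SD, n = 4) and 533 ± 63.5 TPM in Cd mice. Cdo1 moved the other way, with all 4 Cd mice above all 4 control mice, but did not pass the test. The other 6 genes overlapped between these groups. Of all 11766 genes tested, 30.8% passed the test in this comparison, 24.9% as lower and 5.82% as higher, so 3 lower members of 10 is a share near this background. Of the 3, only Mat1a kept its call when each library was centred on its median.

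**Figure D1:**
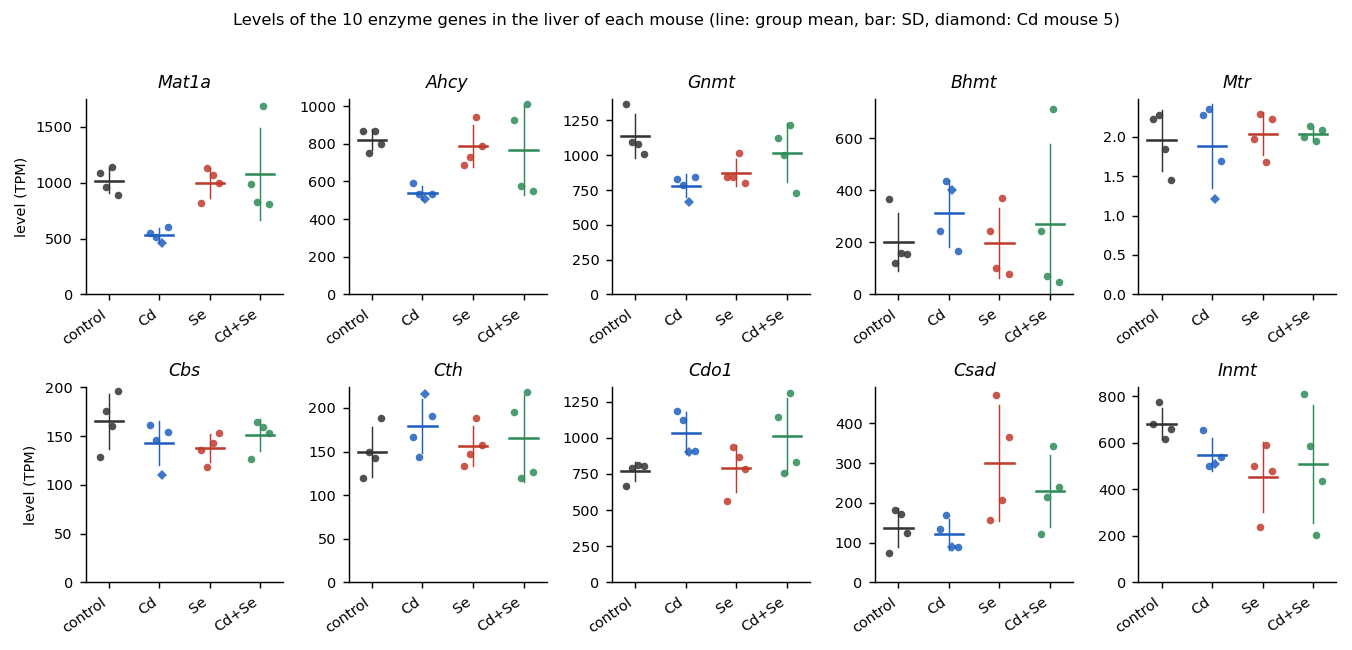
Level of each of the 10 enzyme genes in TPM (vertical axes, from 0) in each of the 16 mice, by group. Each point is 1 mouse, the horizontal line is the group mean of 4 mice and the vertical bar its SD, cut off at 0; the diamond is Cd mouse 5. The Cd points of Mat1a, Ahcy and Gnmt lie below all control points, while those of Cdo1 lie above them, and the Cd+Se points of Bhmt run from 48.9 to 715 TPM.

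Mat1a (ENSMUSG00000037798) lies on the plus strand at chr14:41105035-41124412 in GRCm38. Its level was 1082, 964, 1137 and 890 TPM in control mice 27 to 30, and 553, 516, 456 and 607 TPM in Cd mice 1, 2, 5 and 6. The highest Cd mouse was thus well below the lowest control mouse. The ratio of the mean TPM was 0.523, and the log2 fold change of TPM + 1 was -0.93 (standard error 0.19, limma adjusted p = 0.00259).

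Ahcy (ENSMUSG00000027597), at chr2:155059310-155074497 on the minus strand, read 870, 750, 867 and 802 TPM in control mice 27 to 30. In Cd mice 1, 2, 5 and 6 it read 593, 533, 506 and 531 TPM. The 4 Cd values were close to each other, and the highest was below the lowest control value. The ratio of the means was 0.658 and the log2 fold change -0.60 (standard error 0.17, limma adjusted p = 0.0168).

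Gnmt (ENSMUSG00000002769), at chr17:46725664-46729168 on the minus strand, encodes the glycine methyltransferase that uses up surplus SAM in hepatocytes. It was the member with the highest mean over the 16 libraries, 954 TPM, ahead of Mat1a with 907 and Cdo1 with 899.9. It stood at 1368, 1096, 1084 and 1011 TPM in control mice 27 to 30, and at 831, 787, 665 and 846 TPM in Cd mice 1, 2, 5 and 6. The groups did not overlap. The ratio of the means was 0.686 and the log2 fold change -0.54 (standard error 0.15, limma adjusted p = 0.0146).

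The groups of 34.2% of all genes did not overlap in Cd against control, against 4 of the 10 members. The median log2 fold change was -0.18 over the members and -0.17 over all genes tested. The scale of the libraries bears on these values. With each library centred on its median, the median over all genes moved to 0.05 and the calls, 685 higher and 2934 lower with TPM as deposited, became 2260 higher and 1804 lower; with quantile normalization they were 1710 and 2276. Mat1a kept its call after centring, with a log2 fold change of -0.71 (limma adjusted p = 0.0109). Ahcy and Gnmt kept their direction but not their call, at -0.38 (limma adjusted p = 0.136) and -0.32 (limma adjusted p = 0.137). Without Cd mouse 5, the log2 fold changes were -0.86 for Mat1a, -0.57 for Ahcy and -0.46 for Gnmt, with limma adjusted p of 0.0102, 0.0449 and 0.0480, and 2673 genes passed the test in place of 3619.

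The levels of cell type markers also differed between these groups, and the part of this in the results was not tested. In bulk tissue, fewer hepatocytes and less of an RNA per hepatocyte cannot be told apart. Of the 6 hepatocyte markers, Serpina1c and Cps1 were lower in Cd mice and 4 did not pass. Cps1, the first enzyme of the urea cycle, went from a mean of 824 TPM in control mice to a mean of 325 TPM in Cd mice. The summed level of 4 Kupffer cell markers was 92.8 to 115 TPM in control mice and 29.6 to 50.1 TPM in Cd mice. That of 4 sinusoidal endothelial markers was 48.6 to 59.6 TPM and 31.2 to 45.9 TPM, also without overlap. Of these 4, 2 were lower by the test and 0 higher. Clec4g held most of the sum, at a mean of 36.8 TPM in control and 28.7 in Cd mice. Lyve1 went the other way, at a mean of 2.79 and 3.14 TPM. The summed level of 4 neutrophil markers was 5.36 to 15.7 TPM in control and 30.3 to 38.0 TPM in Cd mice, with Ly6g at or near 0 in both groups. The markers of central and portal hepatocytes overlapped between the groups for the portal list, 2986 to 3817 TPM against 3129 to 3788, but not for the central list, 5096 to 5747 TPM against 4100 to 4886. Neither list moved as 1: of the 6 central markers Slc1a2 was lower and Rhbg higher by the test, and most of the central sum was Cyp2e1, which did not pass (limma adjusted p = 0.142). Of the 6 portal markers Cyp2f2 was lower and the other 5 did not pass.

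**Figure D2:**
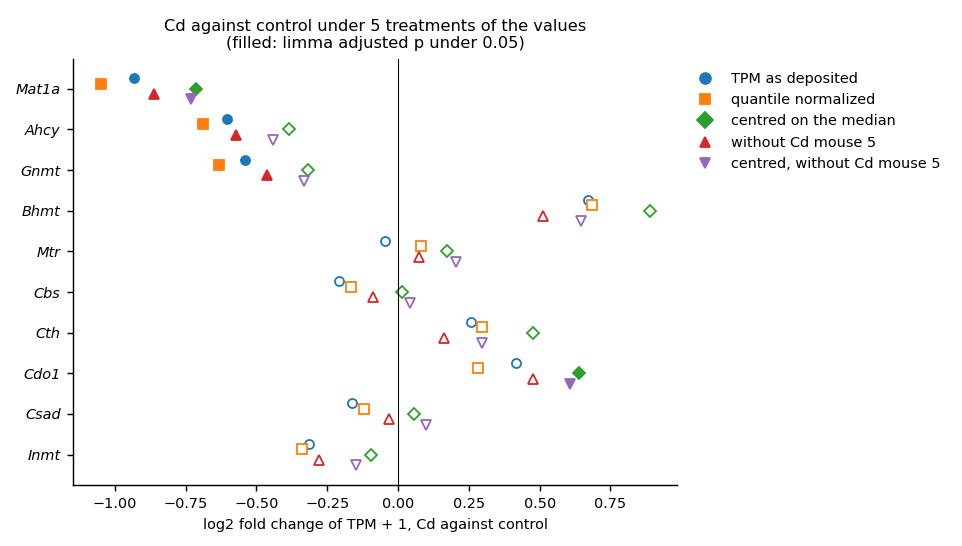
Log2 fold change of TPM + 1 in Cd against control (horizontal axis) for each enzyme gene under 5 treatments of the values; filled symbols passed the limma test at an adjusted p under 0.05. Mat1a stays filled under all 5 (-1.05 to -0.71), Ahcy and Gnmt are open once libraries are centred, and Cdo1 is filled only then (0.61 and 0.64).

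Ahcy and Gnmt are the members that fell for which a promoter sequence was at hand. Both are shown with matches to TGCNCNC, a looser pattern than TGCRCNC (R is A or G), the core of the metal response element. That element is bound by the transcription factor through which Cd induces metallothionein genes. Both matches, TGCTCCC in Ahcy and TGCTCTC in Gnmt, have T where the core has A or G. The sequences are the 250 bases before the RefSeq start in GRCm38.p6, 5′ to 3′ on the minus strand, at chr2:155074498-155074747 and chr17:46729166-46729415. Capitals mark matches to TGCNCNC, searched on both strands.
Ahcy: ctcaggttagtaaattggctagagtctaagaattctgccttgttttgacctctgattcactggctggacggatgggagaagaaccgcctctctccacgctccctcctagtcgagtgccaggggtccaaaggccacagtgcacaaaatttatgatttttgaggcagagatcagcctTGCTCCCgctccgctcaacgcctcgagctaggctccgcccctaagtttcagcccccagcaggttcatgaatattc
Gnmt: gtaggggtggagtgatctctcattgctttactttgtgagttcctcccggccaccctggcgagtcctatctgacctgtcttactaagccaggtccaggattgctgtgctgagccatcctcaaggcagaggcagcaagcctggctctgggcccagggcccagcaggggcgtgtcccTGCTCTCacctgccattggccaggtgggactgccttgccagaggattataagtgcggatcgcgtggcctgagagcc
The pattern TGCNCNC stood once in each, 75 bases before the start in Ahcy and 76 in Gnmt. Among the 7 members in the RefSeq promoter table it was also found in Bhmt, once, and in Inmt, in 2 places, and not in Mtr, Cbs or Csad. It is a short motif, held by 44.4% of 32851 mouse promoters of the same length. The E-box CACGTG was found in Cbs, 229 bases before the start, and in 6.02% of all promoters. A match is a description of letters and not of binding.

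The 2 routes from homocysteine back to methionine did not pass the test in Cd against control. Bhmt, one of the most variable members, stood at 368, 120, 160 and 157 TPM in control mice 27 to 30, and at 244, 437, 403 and 167 TPM in Cd mice 1, 2, 5 and 6. The ranges overlapped, with control mouse 27 above 2 of the Cd mice and below the other 2. The log2 fold change was 0.67 with a 95% interval from -0.80 to 2.14 (limma adjusted p = 0.488), an interval that holds a doubling as well as a fall. Mtr, the cobalamin-dependent methionine synthase, was the lowest member, at 1.45 to 2.28 TPM in control mice and 1.21 to 2.35 in Cd mice. The log2 fold change of Mtr was -0.05 (95% interval from -0.35 to 0.26, limma adjusted p = 0.835), on a scale that understates changes at such a level.

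The transsulfuration genes overlapped between control and Cd mice. Cbs, which joins homocysteine to serine, was at 129, 176, 161 and 196 TPM in control mice 27 to 30 and at 161, 146, 110 and 154 TPM in Cd mice 1, 2, 5 and 6. Its log2 fold change was -0.21 (95% interval from -0.52 to 0.11, limma adjusted p = 0.303). Cth, which releases cysteine from the product of Cbs, was at 119, 149, 143 and 188 TPM in the control mice and at 167, 143, 216 and 190 TPM in the Cd mice, in the same order. Its log2 fold change was 0.26 (95% interval from -0.16 to 0.68, limma adjusted p = 0.343). Neither gene alone was apart from its control level.

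The ratio of the 2 genes within each library, on which the scale of the library has no bearing, did not overlap between control and Cd mice. Cth stood at 0.848 to 0.959 times the TPM of Cbs in control mice and at 0.983 to 1.96 times in Cd mice. The mean log2 ratio was 0.47 higher in Cd mice, at the smallest p that 4 mice against 4 can give in a two-sided exact permutation test (p = 0.0286; 0.0571 after Benjamini-Hochberg adjustment over the 6 ratio comparisons made). Cd mouse 5 had the highest ratio, and without it the difference was 0.25. Se mice, which received no Cd, were also above all control mice, at 0.983 to 1.31 times, a difference that was not tested. In Cd+Se mice the ratio ran from 0.729 to 1.54, overlapping all of those ranges.

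Of the cysteine-oxidising branch, Cdo1 stood higher in Cd mice without passing the test, and Csad did not separate. Cdo1 (cysteine dioxygenase) was at 670, 788, 814 and 802 TPM in control mice 27 to 30 and at 1188, 1122, 904 and 911 TPM in Cd mice 1, 2, 5 and 6. Its lowest Cd mouse was above its highest control mouse, with a ratio of the means of 1.34. On the log2 scale the difference was 0.42 (limma adjusted p = 0.0953, standard error 0.18). It passed the test after centring on the median (0.64, limma adjusted p = 0.0106) and in a model with only these 2 groups (limma adjusted p = 0.0331). In Cd+Se mice 13 to 16 Cdo1 was at 1146, 754, 1313 and 830 TPM. Its log2 fold change there was -0.06 against Cd (limma adjusted p = 0.864) and 0.36 against control (limma adjusted p = 0.501). Csad, which decarboxylates cysteine sulfinate, was at 74.2 to 183 TPM in control mice and 88.7 to 169 TPM in Cd mice, with a log2 fold change of -0.16 (95% interval from -0.96 to 0.64, limma adjusted p = 0.775).

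Inmt, an indolethylamine methyltransferase that can also methylate selenium compounds, was at 679, 774, 615 and 657 TPM in control mice 27 to 30 and at 653, 498, 507 and 538 TPM in Cd mice 1, 2, 5 and 6. A single Cd mouse, mouse 1, reached the control range. The log2 fold change was -0.31 (95% interval from -1.01 to 0.39, limma adjusted p = 0.495).

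**Figure D3:**
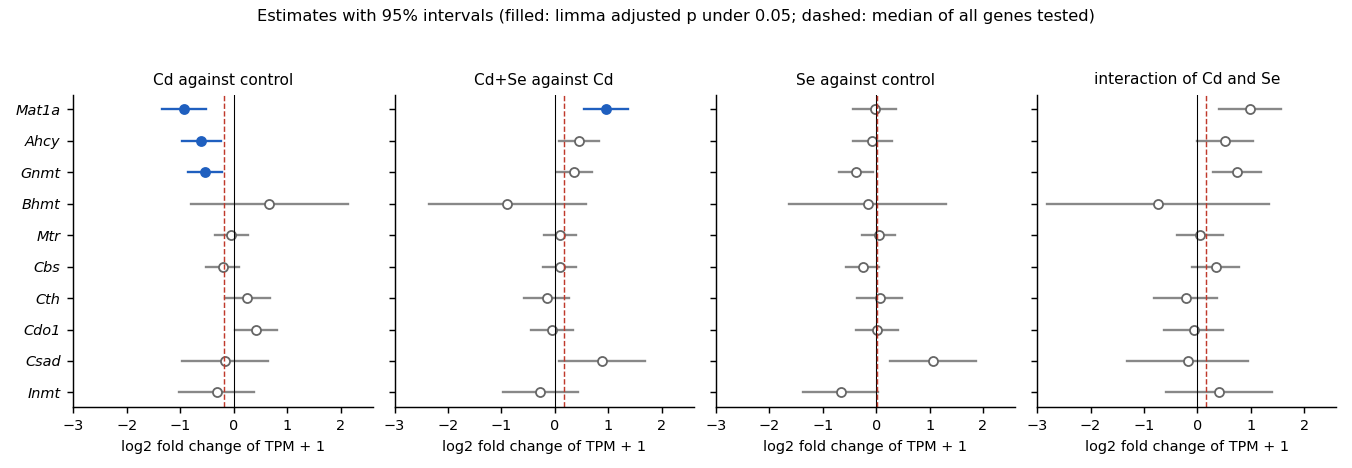
Log2 fold change of TPM + 1 (horizontal axes) of the 10 enzyme genes in 4 contrasts, with 95% intervals from limma; filled points passed at an adjusted p under 0.05, and the dashed line is the median of all 11766 genes tested. Mat1a is filled at -0.93 in Cd against control and at 0.95 in Cd+Se against Cd, and the intervals of Bhmt are the widest.

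In mice given both agents, Mat1a overlapped the range of control mice, and it was the 1 member that rose in Cd+Se against Cd. Cd+Se mice 13 to 16 had 987, 828, 1685 and 805 TPM of Mat1a, all above the 456 to 607 TPM of the Cd mice. The ratio of the means was 2.02 and the log2 fold change 0.95 (standard error 0.19, limma adjusted p = 0.00863). Mouse 15 was high and the other 3 were within or just below the 890 to 1137 TPM of control mice. In this comparison 15.9% of all genes passed the test, 13.6% as higher, and the groups of 19.2% did not overlap, against 1 of 10 members on each count. The median of all genes was 0.17 and that of the members 0.09. Without Cd mouse 5 the number of genes called went from 1876 to 762, and Mat1a kept its call with a log2 fold change of 0.88 (limma adjusted p = 0.0286). After centring, Mat1a kept it too, but in a model with only the Cd and Cd+Se mice it did not (limma adjusted p = 0.0674), where 66 genes in all were called. Of the 6 hepatocyte markers, Cps1 was higher in this comparison (0.87, limma adjusted p = 0.00838) and the other 5 did not pass, at log2 fold changes from -0.50 for Fabp1 to 0.38 for Alb. The Kupffer cell sum, at 24.1 to 56.6 TPM in Cd+Se mice, overlapped that of the Cd mice. The neutrophil sum was higher at 41.7 to 70.2 TPM, but 0 of the 2 tested neutrophil markers passed, and Ly6g was at 0 TPM. Of the 4 sinusoidal endothelial markers 1 was higher by the test, and of the 6 portal markers 1 was lower. The endothelial sum, at 34.7 to 66.2 TPM, overlapped that of the Cd mice, while Lyve1 was above all of them, at 5.84 to 8.32 TPM. Their part in the result was not tested.

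The level of Mat1a against Mat2a, the gene of the enzyme's form in dividing and non-hepatic cells, was taken within each library. Mat1a stood at 16.6 to 22.3 times the TPM of Mat2a in control mice, 7.23 to 10.8 times in Cd mice, 14.1 to 22.3 times in Se mice and 14.01 to 24.9 times in Cd+Se mice. Cd mice were below all 12 others. The mean log2 ratio differed from that of control mice by -1.21 in Cd mice, and Cd+Se mice stood 1.21 above Cd mice. Both are at the smallest p that the exact two-sided permutation test can give (p = 0.0286, 0.0571 after adjustment over 6). Mat2a itself did not pass the test in Cd against control (log2 fold change 0.28, limma adjusted p = 0.177) or in Cd+Se against Cd (-0.25, limma adjusted p = 0.260). Both comparisons use the same Cd mice.

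**Figure D4:**
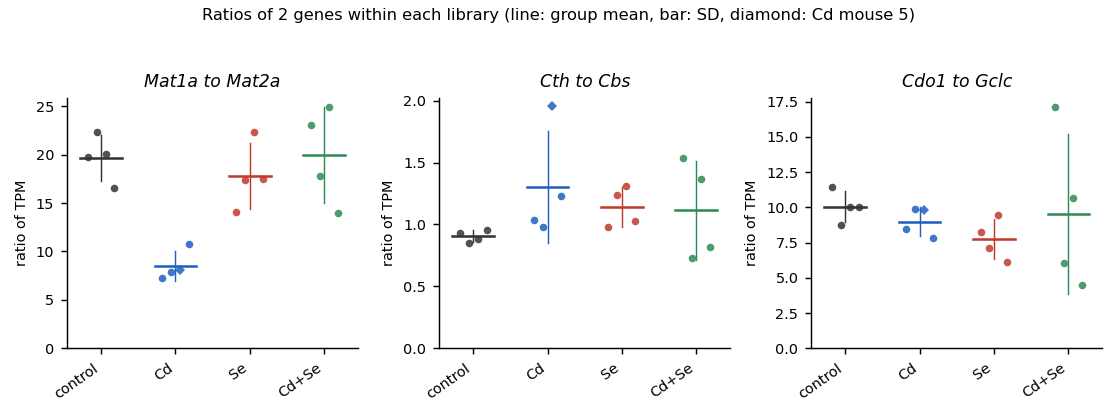
Ratio of the TPM of 2 genes within each library (vertical axes, from 0) for Mat1a to Mat2a, Cth to Cbs and Cdo1 to Gclc, by group; points are mice, lines group means of 4 mice, bars SD, and the diamond is Cd mouse 5. The 4 Cd mice are lowest for Mat1a to Mat2a, at 7.23 to 10.8, and the Cd+Se mice spread widest for Cdo1 to Gclc, at 4.46 to 17.1.

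Ahcy and Gnmt stood in between. Ahcy was at 929, 573, 1012 and 550 TPM in Cd+Se mice 13 to 16, 2 mice above the control range and 2 within the Cd range. Its log2 fold change in Cd+Se against Cd was 0.45 (95% interval from 0.08 to 0.82, limma adjusted p = 0.0863). Gnmt was at 1126, 1002, 1220 and 731 TPM in the same mice, with mouse 16 inside the Cd range, and its log2 fold change was 0.36 (95% interval from 0.04 to 0.69, limma adjusted p = 0.111). Leaving out Cd+Se mouse 16 brought both past the threshold, at 0.59 (limma adjusted p = 0.0390) and 0.51 (limma adjusted p = 0.0306).

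Bhmt, Inmt and Csad varied among the Cd+Se mice by 14.6-fold, 3.98-fold and 2.82-fold. Csad was at 122, 216, 343 and 240 TPM in mice 13 to 16, against a highest Cd value of 169, with a log2 fold change of 0.89 (95% interval from 0.09 to 1.68, limma adjusted p = 0.115). Bhmt was at 242, 70.3, 715 and 48.9 TPM, with a log2 fold change of -0.89 (95% interval from -2.36 to 0.58, limma adjusted p = 0.389). Inmt, at 808, 585, 203 and 435 TPM, was lowest in mouse 15, the mouse in which Mat1a, Ahcy, Gnmt, Bhmt, Cth, Cdo1 and Csad were highest of the 4. The sum of the 10 genes was 6870 TPM in that mouse and 3923 to 5683 TPM in the other Cd+Se mice.

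SeMet alone moved no member past the test. In Se against control, 0 of the 11766 genes passed with limma (454 had an unadjusted p under 0.05), 0% of the background, and 2 members, Gnmt and Csad, had an unadjusted p under 0.05. Csad was at 156, 471, 207 and 366 TPM in Se mice 39, 40, 41 and 44, against 74.2 to 183 TPM in control mice. Only mouse 39 reached the control range, and the log2 fold change was 1.06 (95% interval from 0.27 to 1.86, limma adjusted p = 1). Inmt was at 499, 237, 589 and 479 TPM in the Se mice, all below the lowest control mouse at 615 TPM, with a log2 fold change of -0.67 (95% interval from -1.37 to 0.03, limma adjusted p = 1). The groups of 3.09% of all genes did not overlap in this comparison, against 1 member of 10. Gnmt was at 841, 844, 1016 and 799.96 TPM, where mouse 41 reached the lowest control mouse, with a log2 fold change of -0.38 (limma adjusted p = 1). Mat1a was at 817 to 1127 TPM in Se mice, over the control range.

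The effect of Cd was compared between mice with and without SeMet through the interaction of the 2 agents. It passed the test for 1.04% of all genes and for 0 of 10 members with limma, while 2 members had an unadjusted p under 0.05. These were Mat1a, whose log2 change with Cd was 0.98 higher in SeMet-fed mice (95% interval from 0.40 to 1.56, limma adjusted p = 0.0814), and Gnmt, for which it was 0.74 higher (95% interval from 0.28 to 1.20, limma adjusted p = 0.0891). For Ahcy the value was 0.52 (95% interval from -0.004 to 1.04, limma adjusted p = 0.239). After quantile normalization Mat1a and Gnmt passed, with limma adjusted p of 0.0381 and 0.0357.

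In Cd+Se mice against mice given SeMet alone, 0 of 10 members passed with limma (0 at an unadjusted p under 0.05), beside 0.714% of all genes. Against control mice 0 members passed as well (0 at an unadjusted p under 0.05), beside 0.484%. Every member overlapped in both comparisons. The log2 fold change of Mat1a in Cd+Se against control was 0.02 (95% interval from -0.39 to 0.43), and the members' values lay between -0.58 for Inmt and 0.72 for Csad.

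Related genes were counted in 5 lists, of which the other genes of the methionine cycle and one-carbon supply are nearest to the members. Of 18, 5 were lower and 0 higher in Cd against control, beside 24.9% and 5.82% of all genes, and their median log2 fold change was -0.23 beside -0.17 over all genes. The other lists have the same background. Ahcyl2, an Ahcy-like protein, fell from 5.72 ± 0.23 TPM (SD, n = 4) to 2.92 ± 0.61 (log2 fold change -0.79, limma adjusted p = 0.00164). Chdh, which starts the route from choline to betaine, fell from 36.9 ± 2.72 TPM to 24.3 ± 5.01 (-0.61, limma adjusted p = 0.00660). Bhmt2, a paralog of Bhmt that methylates homocysteine with S-methylmethionine, fell from 67.2 ± 4.74 TPM to 45.8 ± 4.81 (-0.55, limma adjusted p = 0.00604), whereas Bhmt did not pass. Aldh7a1, which oxidises betaine aldehyde, was called at -0.31 (limma adjusted p = 0.0292), and the folate enzyme Mthfd1 at -0.33 (limma adjusted p = 0.0435). The first 3 kept their call after centring and without Cd mouse 5. Aldh7a1 and Mthfd1 lost it under both.

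These 3 genes also rose in Cd+Se against Cd, where 3 of the 18 were higher and 0 lower, beside 13.6% of all genes higher and 2.35% lower. Their log2 fold changes were 0.55 for Ahcyl2 (limma adjusted p = 0.0255), 0.54 for Chdh (limma adjusted p = 0.0253) and 0.45 for Bhmt2 (limma adjusted p = 0.0301). Without Cd mouse 5 the 3 genes kept their direction, at 0.44, 0.39 and 0.41, and not their call (limma adjusted p = 0.0816, 0.0710 and 0.0841). After centring, Chdh kept its call and the others did not (limma adjusted p = 0.0580 for Ahcyl2 and 0.136 for Bhmt2). The same Cd mice enter both comparisons.

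Other users and products of SAM moved little. Of 15 other methyltransferases and genes of polyamine synthesis and methylthioadenosine salvage, 2 were lower and 0 higher in Cd against control. They were Srm, spermidine synthase, from 18.0 ± 2.05 to 10.7 ± 1.78 TPM (log2 fold change -0.71, limma adjusted p = 0.0149), and Mtap, which opens methylthioadenosine for reuse, from 7.72 ± 0.95 to 4.99 ± 0.95 TPM (-0.55, limma adjusted p = 0.0119). Both kept their direction but not their call after centring (limma adjusted p = 0.0618 and 0.0576), and without Cd mouse 5 Srm lost its call as well (limma adjusted p = 0.0533). In Cd+Se against Cd, As3mt, an arsenic methyltransferase, was higher (0.62, limma adjusted p = 0.0209) and Gamt, which makes creatine, lower (-0.69, limma adjusted p = 0.0418). Both kept their call after centring (limma adjusted p = 0.0115 and 0.00863). Without Cd mouse 5 their log2 fold changes were 0.46 and -0.69, and neither passed (limma adjusted p = 0.0625 and 0.0930).

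**Figure D5:**
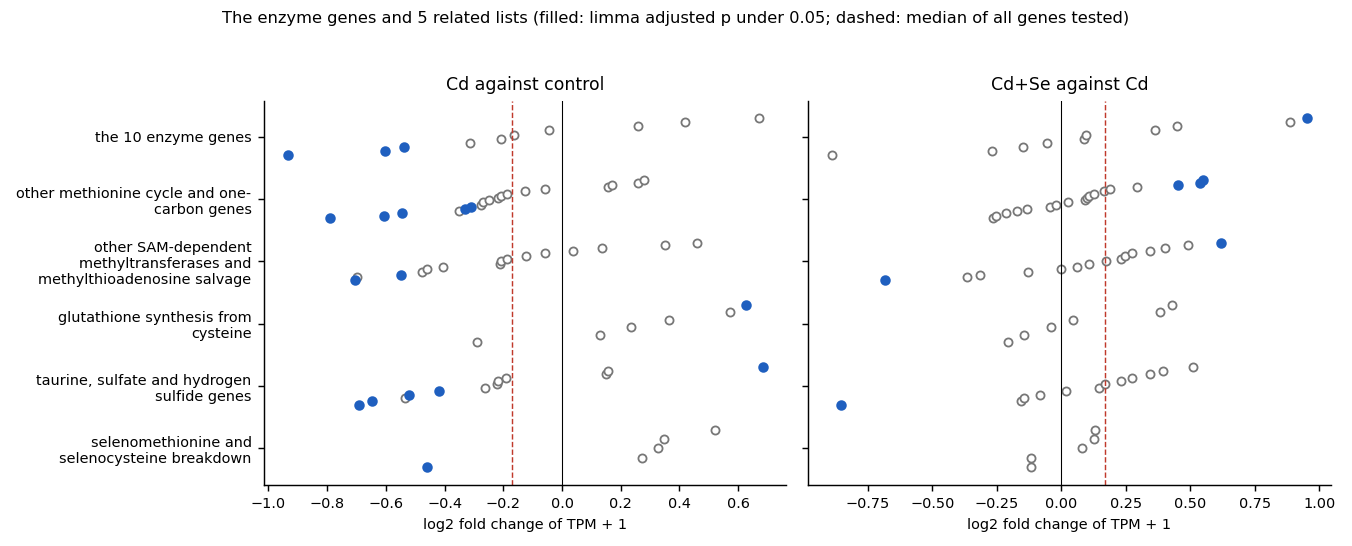
Log2 fold change of TPM + 1 (horizontal axes) of the enzyme genes and of 5 lists of related genes in Cd against control and in Cd+Se against Cd; each point is a gene, filled at a limma adjusted p under 0.05, and the dashed line is the median of all genes tested, -0.17 and 0.17. Called genes lie on the lower side in Cd against control except Gclm (0.63) and Ethe1 (0.68).

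Downstream of cysteine, the lists were mixed. The glutathione list covers its synthesis from cysteine, its breakdown (such as Chac1 and Chac2) and cystine import (such as Slc3a2). Of its 6 tested genes, 1 was higher and 0 lower in Cd against control. It was Gclm, the modifier subunit of the rate-limiting ligase, at 99.99 ± 3.40 TPM in control and 155 ± 17.1 TPM in Cd mice (log2 fold change 0.63, limma adjusted p = 0.0205), a call kept after centring and without Cd mouse 5. Gclc also stood higher in all Cd mice than in any control mouse, by 49.2% in mean TPM, and Slc3a2 lower, by 19.0%. Neither of them passed the test. Cdo1 and Gclc, which start the branches from cysteine to taurine and to glutathione, both stood higher in Cd mice. Their ratios overlapped, 8.74 to 11.4 in control and 7.79 to 9.91 in Cd mice. The difference of the log2 ratio was -0.16 (two-sided exact permutation p = 0.143, 0.214 after adjustment over 6), and in Cd+Se against Cd it was -0.10 (p = 0.829 by the same exact test, 0.829 adjusted).

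Of 12 tested genes of taurine, sulfate and hydrogen sulfide handling, 4 were lower and 1 higher in Cd against control, near the 24.9% and 5.82% over all genes. Suox, which oxidises sulfite to sulfate, fell from 31.7 ± 1.52 to 19.97 ± 2.74 TPM (log2 fold change -0.65, limma adjusted p = 0.00323). Sqor, which oxidises hydrogen sulfide, fell from 93.6 ± 8.90 to 65.6 ± 11.8 TPM (-0.52, limma adjusted p = 0.0216). The taurine transporter gene Slc6a6 was called at -0.69 (limma adjusted p = 0.0399), and the cysteamine dioxygenase gene Ado at -0.42 (limma adjusted p = 0.0451). Ethe1, the persulfide dioxygenase that follows Sqor, rose from 10.8 ± 0.91 to 18.1 ± 2.83 TPM (0.68, limma adjusted p = 0.00495). It was lower again in Cd+Se mice, at 9.69 ± 2.45 TPM (-0.85 against Cd, limma adjusted p = 0.00607), and Ethe1 kept both calls after centring and without Cd mouse 5. After centring, the 4 lower genes kept their direction and lost their call, with limma adjusted p from 0.0588 to 0.238, and without Cd mouse 5 Sqor, Slc6a6 and Ado lost it too.

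The list for selenomethionine and selenocysteine breakdown held Scly, Kyat1 and Kyat3, together with Selenbp1 and Selenbp2, which are named for selenium binding. Over these 5 genes the median change with Cd alone was 0.33 on the log2 scale, beside -0.17 over all genes. By the test, 1 of the 5 was lower and 0 higher in Cd against control. It was Scly, selenocysteine lyase, which frees Se from selenocysteine, at 35.6 ± 2.18 TPM in control and 25.8 ± 3.24 TPM in Cd mice (log2 fold change -0.46, limma adjusted p = 0.00397), and it kept its call after centring and without Cd mouse 5. No tested gene of the 5 lists passed in Se against control, in the interaction, or in Cd+Se against Se or control. Slc7a11, the cystine importer gene of the glutathione list, had a mean under 1 TPM and was not tested. It was at 0 to 0.070 TPM in control, 0.080 to 0.21 in Cd, 0.030 to 0.080 in Se and 0.27 to 1.06 TPM in Cd+Se mice, which were above all others.

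The genes most like the 3 members that fell were ranked by the root mean square difference of centred log2(TPM + 1) over the 16 libraries. For Mat1a they were Slc39a14, a metal transporter gene, at 0.15, Pptc7 at 0.16 and Serinc3 at 0.17, where Mat1a itself varied by 0.48. For Ahcy they were Sun2 (0.13), Slc27a2 (0.13) and Pitrm1 (0.15), and for Gnmt they were Dpyd (0.13), Clu (0.15) and Fn1 (0.15). No member was among the 3 nearest genes of another.

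Some of these levels could share reads with genes whose bounds overlap theirs. Exons were not compared, and whether the counting used strand is not given in the sources used here. Antisense genes overlap Ahcy (Gm45609) and Bhmt (Gm15622), the long non-coding gene Gm26904 overlaps Gnmt on the other strand, and Zfp740 overlaps Csad on the other strand. Gm43314 overlaps Cth on the same strand, where counting by strand would not part them. Bhmt and Bhmt2 are paralogs, and reads could be split between them.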

How the data were processed

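Liver poly(A) RNA of 16 mice was sequenced by a company for the authors, who deposited TPM for 57010 mouse genes in 1 table with 1 column per mouse. Each title names 2 repeats of a mouse, which the table holds as 1 column. The submitters' processing notes name fastp, HISAT2, StringTie and GRCh38, a human build, while the identifiers are mouse Ensembl; positions here are from GENCODE M21 (GRCm38), matched by identifier. The strand setting and depth are not given in the sources used here. The 16 columns summed to the same total and no 2 were identical. No column was left unused.

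Values were compared as log2(TPM + 1), so that changes of low genes are understated, with limma 3.58.1 in R 4.3.3, in 1 model with a mean per group and an intensity trend. Testing was limited to the 11766 genes whose mean reached 1 TPM, with Benjamini-Hochberg adjustment and a threshold of 0.05. Ratios of 2 genes were compared in Python 3.11.15 by exact two-sided permutation over 70 arrangements. Steps were tested on simulated data; of 200 changed genes among 11766, 179 were recovered.

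The members and lists were chosen with earlier results of these data known. All members are described. Of each list, the genes called in any contrast are named, up to 4 by the smallest p in Cd against control; Mthfd1 and Ado were added after their values were seen. Mice of 1 group are separate animals by the labels, and no batch is given. The alternatives were a pseudocount of 0.1, no filter or a mean of at least 5 TPM, quantile normalization, centring on the median, no trend, 2-group models and leaving out each mouse. After seeing the data, 2 were added: Cd mouse 5 left out together with centring, and TPM rescaled without mitochondrially encoded genes. Authors' comparison columns are not in the table. Protein sequences were not used here.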

Additional observations from a re-analysis of the deposited data

Results flagged for a closer look

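Of the 40 groups formed by 10 genes and 4 treatments, 1 held a mouse apart from the other 3, where chance alone gives about 1 in 20, or 2 of 40. In control mice, Bhmt was at 368 TPM in mouse 27 and at 120 to 160 TPM in the other 3. The gap to the nearest mouse was 0.837 of the whole range, above the critical value of 0.829 for 4 samples. Without this mouse the log2 fold change of Bhmt in Cd against control was 1.005 (limma adjusted p = 0.334), and it did not pass the test.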

How the results depend on the processing

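Mat1a in Cd against control kept its direction and call under all 25 alternatives, at log2 fold changes from -1.05 to -0.71. Ahcy and Gnmt kept theirs under 23, and lost the call once libraries were centred on their medians (-0.38 and -0.32) and, chosen after seeing the data, after centring with Cd mouse 5 left out (-0.44 and -0.33). The values near 0 changed sign. Mtr in Cd against control was 0.081 after quantile normalization, 0.17 after centring, 0.21 after centring without Cd mouse 5 and -0.13 to 0.075 when 1 mouse was left out. Cbs was 0.012 and Csad 0.058 after centring, and 0.042 and 0.098 after centring without Cd mouse 5. Mat1a in Cd+Se against control was -0.14 after quantile normalization, -0.0019 after rescaling without mitochondrially encoded genes (chosen after seeing the data) and -0.22 to 0.13 when 1 mouse was left out.

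Of the 10 members, 0 were called in Cd+Se against Cd in a model with only those groups, and 1 to 3 when 1 mouse was left out. Those gained were Csad without Cd+Se mouse 13 (1.16, limma adjusted p = 0.0476), and Ahcy and Gnmt without Cd+Se mouse 16. In the interaction, 2 were called after quantile normalization, 1 after rescaling without mitochondrially encoded genes (Mat1a) and 0 to 1 when 1 mouse was left out (Gnmt, without Cd+Se mouse 16). In the other comparisons the number of members called stayed within 1.5 times. The difference of the Cdo1 to Gclc log2 ratio in Cd+Se against Cd was -0.44 to 0.20 when 1 mouse was left out, positive without Cd+Se mouse 14 or 16. The other 5 ratio differences kept their sign, and none passed after adjustment; with 3 mice against 4 the smallest exact p is 0.0571. The cause of these changes was not tested.

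Counts over all genes moved more. In Cd+Se against Cd, 1876 genes became 1131 without a filter, 66 in a model with only those groups, 1203 after centring without Cd mouse 5, 762 without Cd mouse 5 and 730 without Cd+Se mouse 14. In the interaction, 122 became 26 without a filter, 524 after quantile normalization, 731 after centring, 290 after centring without Cd mouse 5, 516 after rescaling, and 3 to 349 when 1 mouse was left out. In Cd+Se against control, 57 became 18 to 104, and against Se, 84 became 11 to 190. In Se against control, up to 2 were called when 1 mouse was left out. No paired analysis was possible because the mouse numbers are not shared between groups. Depth is unknown, and 4 mice per group set the precision.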
